A study of Mus musculus with 6 samples.

Results

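The red-cell miRNAs miR-451a, miR-144 and miR-486 were followed in small RNA libraries from mouse liver. The members were the 7 rows of the deposited table, out of 1546 mature miRNAs, that carry the names mmu-miR-451a, mmu-miR-144-3p, mmu-miR-144-5p, mmu-miR-486a-5p, mmu-miR-486b-5p, mmu-miR-486a-3p and mmu-miR-486b-3p (mmu, for mouse, is left out below). All 7 were listed, and 5 of them reached the mean of 1 CPM (reads per 1000000 reads on miRNAs) that was set for testing. By the study's methods, male C57BL/6 mice entered the study at 8 weeks of age. The NC group (3 livers) was fed a normal diet. The MAFLD group (3 livers), labelled only as MAFLD, was by those methods given a high-fat diet for 16 weeks as a model of metabolic dysfunction-associated fatty liver disease. Both groups were of the same strain, and no allele or drug is described for either. The study's methods describe a fast of 6 hours, blood collection from the orbit and a rinse of the liver in saline, and they name no perfusion, so the amount of blood left in each liver is not known. They describe 6 mice per diet and no pooling, and do not say which 3 were sequenced.

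The depth of the libraries ran from 1336935 to 2549598 miRNA reads in NC livers and from 1534569 to 4685712 in MAFLD livers. A level of 3 reads, taken as the smallest that can be shown, stood between 0.640 and 2.24 CPM. All libraries carried the hepatocyte miRNA miR-122-5p, at between 42159 and 85150 CPM. The 5 hepatocyte miRNAs of the marker list summed to between 644087 and 816441 CPM, most of it miR-148a-3p. The brain miRNA miR-9-5p reached 344 CPM in NC replicate 1 and 530 CPM in NC replicate 2, but between 4.48 and 12.4 CPM elsewhere, and its part in the results below was not tested. Of the 501 miRNAs tested, 1 (0.2%) passed an adjusted p of 0.05 and 90 (18%) an unadjusted p of 0.05 by limma, and the groups did not overlap for 97 (19.4%). The median log2 fold change of all tested miRNAs was 0.43, and it was 0.044 under median-ratio scaling, in which each library is divided by its median ratio to a reference of geometric means. That scaling also turned the split of the miRNAs at an unadjusted p of 0.05 from 67 higher and 23 lower in MAFLD livers to 36 higher and 45 lower.

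Red blood cells of mammals lose their nucleus but keep abundant miRNAs. MiR-451a and miR-144 are cut from 1 primary transcript that the erythroid factor GATA1 switches on, and miR-451a is matured by the slicer Ago2 without the usual cut by Dicer. MiR-144-3p is the better known arm of its hairpin, and miR-144-5p the other arm. MiR-486-5p is made in erythroid cells from within the gene of the red-cell membrane protein ankyrin 1, and is also made in skeletal and heart muscle.

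The sequences of the cluster are shown to place the arms of miR-144, which were counted apart, and the hairpin of miR-451a. Whether the shape of that hairpin bears on its read counts was not tested. They are RefSeq entries on GRCm38.p6, written 5′ to 3′, with the seed (bases 2 to 8, which pair with target mRNAs) in capitals. RefSeq entries were matched for 3 of the 7 names.
miR-451a: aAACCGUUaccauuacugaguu
miR-144-3p: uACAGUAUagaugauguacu
miR-144-5p: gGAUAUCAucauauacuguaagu
None of the 3 seeds was shared, as an exact match of bases 2 to 8, with any other of the 1679 mature mouse miRNAs among the RefSeq entries (0 for each). Shorter matches, and miRNAs without such an entry, were not looked at. The hairpins follow, with the mature miRNAs in capitals.
Mir451a hairpin: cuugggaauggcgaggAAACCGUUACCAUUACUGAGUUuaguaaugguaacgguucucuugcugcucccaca
Mir144 hairpin: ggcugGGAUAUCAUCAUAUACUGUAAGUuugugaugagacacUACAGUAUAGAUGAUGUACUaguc
The mature miR-451a spans bases 17 to 38 of a hairpin of 72 bases. In the fold predicted by RNAfold, the loop lies at bases 35 to 38, so that mature miR-451a runs through the whole loop (4 of 4 bases) and 17 of its 22 bases are paired. The arms of Mir144 lie on either side of the predicted loop at bases 31 to 36, and no base of either arm is within it (0 for each).

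Mir144 (ENSMUSG00000065401.1) is on the plus strand of chromosome 11 of GRCm38, at chr11:78073005-78073070, and Mir451a (ENSMUSG00000070065.1) follows on the same strand at chr11:78073170-78073241 after a gap of 99 bases. No protein-coding gene overlaps the pair in GENCODE M21, and the nearest, Eral1, is 134 bases away. The hairpin Mir451b lies over Mir451a on the minus strand, and its product was not analysed here. Mir486 (ENSMUSG00000070084.3) is on the plus strand of chromosome 8 at chr8:23142555-23142682, within an intron of Ank1, and within it, on the minus strand, is the hairpin of miR-486b (Mir3107, ENSMUSG00000106471.1) at chr8:23142573-23142662. The reads of miR-486a-5p and miR-486b-5p were equal in 6 of 6 libraries, and those of miR-486a-3p and miR-486b-3p in 5 of 6. The 5p pair was therefore treated as 1 measurement, written as miR-486a-5p from here on.

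MiR-451a was by far the most read of the group. It stood at 1043, 527 and 738 CPM in NC replicates 1 to 3, and at 506, 363 and 811 CPM in MAFLD replicates 1 to 3. NC replicate 1 was the highest and MAFLD replicate 2 the lowest, and the groups overlapped because MAFLD replicate 3 was above NC replicates 2 and 3. These levels rest on between 827 and 2659 reads per library, and the 95% Wilson interval of NC replicate 1, from 1004 to 1083 CPM, shows that counting error was small against the differences between livers. Such intervals cover counting error only. Among all miRNAs, miR-451a held ranks 29, 38 and 40 by abundance in the NC livers and ranks 54, 54 and 42 in the MAFLD livers.

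MiR-451a averaged 769 ± 259 CPM in NC and 560 ± 229 CPM in MAFLD livers (SD, n = 3 each). On the log2(CPM + 1) scale the difference was −0.48 (standard error 0.39, 95% interval −1.30 to 0.34), and limma gave an adjusted p of 0.496. The difference was thus smaller than the spread between livers, and the interval spans from 0.406-fold to 1.27-fold. In bulk tissue, fewer red cells and less miRNA per red cell cannot be told apart. The size of the difference depended on the scaling. Median-ratio scaling moved it to −0.95 (unadjusted p = 0.0205, adjusted p = 0.228), a total without miR-148a-3p to −0.83, and DESeq2, run on the recovered reads, to −1.08 (adjusted p = 0.0948). MiR-148a-3p took between 46.8% and 71.4% of the reads of a library, the most in NC replicates 1 and 2. Without MAFLD replicate 2 the log2 fold change was −0.21, without NC replicate 1 it was −0.23, without NC replicate 2 it was −0.73 and without MAFLD replicate 3 it was −0.79, so single livers set much of its size.

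**Figure D1:**
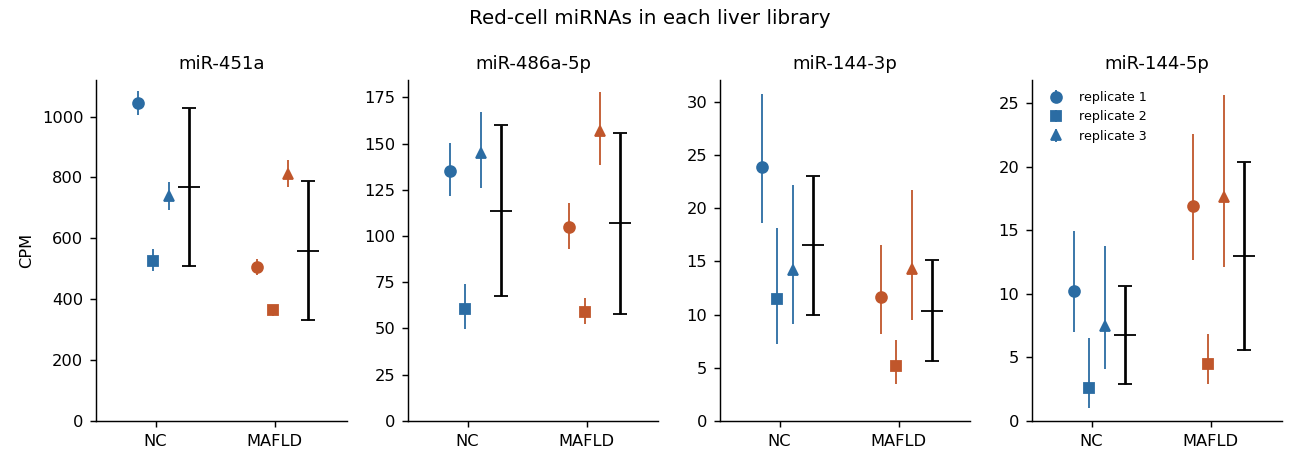
CPM (vertical axis, from 0) of miR-451a, miR-486a-5p, miR-144-3p and miR-144-5p in each library, with 95% Wilson intervals on the points and the group mean ± SD in black (n = 3). The groups overlap in all panels, and replicate 2 of each group, from different mice, is the lowest of its group in each panel.

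MiR-144-3p, cut from the same transcript, was read 18 to 61 times per library. It stood at 23.9, 11.5 and 14.2 CPM in NC replicates 1 to 3 and at 11.6, 5.12 and 14.3 CPM in MAFLD replicates 1 to 3. The order of the livers was almost that of miR-451a, with NC replicate 1 highest and MAFLD replicate 2 lowest, and the groups overlapped. It averaged 16.5 ± 6.54 CPM in NC and 10.4 ± 4.74 CPM in MAFLD livers (SD, n = 3 each), and its log2 fold change was −0.67 (standard error 0.52, 95% interval −1.77 to 0.44, adjusted p = 0.482 by limma). It ranged from −1.37 with DESeq2 (adjusted p = 0.148) to −0.27 without MAFLD replicate 2, and it was −1.11 with median-ratio scaling (unadjusted p = 0.0419, adjusted p = 0.288).

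The other arm of that hairpin, miR-144-5p, stood at 10.2, 2.55 and 7.48 CPM in NC replicates 1 to 3, and at 16.9, 4.48 and 17.6 CPM in MAFLD replicates 1 to 3. MAFLD replicates 1 and 3 were above all NC livers, and MAFLD replicate 2 was below NC replicates 1 and 3. It averaged 6.74 ± 3.88 CPM in NC and 12.99 ± 7.37 CPM in MAFLD livers (SD, n = 3 each). The log2 fold change was 0.81 (standard error 0.61, 95% interval −0.49 to 2.11, adjusted p = 0.463 by limma), and NC replicate 2 rests on only 4 reads. Without NC replicate 2 it was 0.33, without MAFLD replicate 2 it was 1.39 (unadjusted p = 0.0460, adjusted p = 0.275), and with median-ratio scaling it was 0.39. The arms of the hairpin thus had fold changes of opposite sign, although neither passed the test.

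MiR-486a-5p, with 95 to 345 reads per library, stood at 135, 60.5 and 145 CPM in NC replicates 1 to 3 and at 105, 58.9 and 157 CPM in MAFLD replicates 1 to 3. The highest and the lowest values were both from MAFLD livers, so the NC range lay within the MAFLD range. The means were 114 ± 46.3 CPM (SD, n = 3) and 107 ± 49.1 CPM (SD, n = 3), a log2 fold change of −0.098 (standard error 0.47, 95% interval −1.10 to 0.90, adjusted p = 0.931 by limma). Its sign turned when single livers were left out, to 0.077 without NC replicate 1, 0.13 without NC replicate 3 and 0.27 without MAFLD replicate 2, and with median-ratio scaling it was −0.56. The passenger strands were close to absent. MiR-486a-3p was read 5 times in all 6 libraries together and miR-486b-3p 7 times, against 1430 reads of the shared 5p strand. Both had 0 reads in NC replicates 1 and 2, where the 95% Wilson intervals reach 1.51 and 2.45 CPM. Their means over all libraries, 0.440 and 0.511 CPM, were under the filter, and they were not tested.

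No tested member passed an unadjusted p of 0.05 (0 of 4, counting the 5p pair of miR-486 once), against 18% of all tested miRNAs (13.4% higher and 4.59% lower in MAFLD livers). None had groups that did not overlap (0 of 4, against 19.4% of all, 15.2% higher and 4.19% lower). This count depended on the scaling. MiR-451a and miR-144-3p were lower at an unadjusted p of 0.05 (2 of 4) with median-ratio scaling, edgeR and DESeq2, where 8.98%, 9.98% and 10.8% of all miRNAs were, and miR-451a (1 of 4) with miR-148a-3p left out of the total, where 7.6% were. By limma on log2(CPM + 1), 3 of the 4 had a log2 fold change below 0, whereas 28.7% of all tested miRNAs did, and their median was −0.29 against 0.43 over all tested miRNAs. With median-ratio scaling the same 3 were below 0, but the median over all tested miRNAs was 0.044. Of these 3, miR-451a and miR-144-3p come from 1 transcript. Under DESeq2 on the recovered reads, the setting with the smallest adjusted p for miR-451a and miR-144-3p, 32 of the 501 miRNAs passed an adjusted p of 0.05 and no member was among them.

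The balance of the miR-144 arms within a library separated the livers of the groups, though the difference passed no adjusted test. The 3p arm made up 70.1%, 81.8% and 65.5% of miR-144 reads in NC replicates 1 to 3, and 40.8%, 53.3% and 44.9% in MAFLD replicates 1 to 3. The highest MAFLD share was below the lowest NC share. The share rests on 87, 22 and 29 reads in NC livers, with 95% Wilson intervals of 59.8 to 78.7%, 61.5 to 92.7% and 47.3 to 80.1%, and on 76, 45 and 49 reads in MAFLD livers, with intervals of 30.4 to 52.0%, 39.1 to 67.1% and 31.9 to 58.7%. The interval of NC replicate 3 overlapped with those of all MAFLD livers. As a log2 ratio of 3p to 5p, with 1 CPM added to each arm, the mean was 1.27 ± 0.50 (SD, n = 3) in NC and −0.21 ± 0.34 (SD, n = 3) in MAFLD livers. The difference was −1.48 (two-sided exact permutation test, p = 0.1, the smallest that 3 livers against 3 allow, adjusted p = 0.25 over 5 ratios). A ratio within a library does not move with the scaling of the library, other than through the added CPM.

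**Figure D2:**
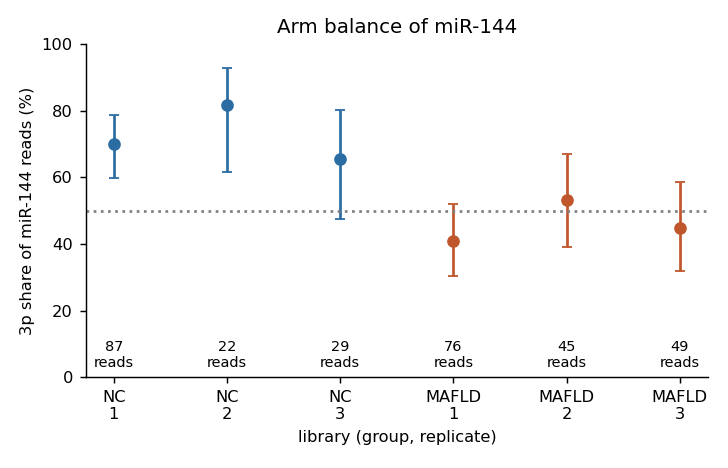
Share of miR-144 reads on the 3p arm (percent, vertical axis) in each library, with 95% Wilson intervals and the number of miR-144 reads at the foot; the dotted line marks equal arms. The NC livers lie between 65.5% and 81.8%, and the MAFLD livers between 40.8% and 53.3%.

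To see how often arms shift, the same log2 ratio was compared with limma over the 105 hairpins whose arms both reached 1 CPM, a comparison added after the values were seen. None passed an adjusted p of 0.05 (0 of 105, or 0%), 17 (16.2%) had an unadjusted p under 0.05, and the groups did not overlap for 21 (20%), of which 11 (10.5% of all) were lower in MAFLD livers. MiR-144 had the most negative difference of the 105 hairpins (standard error 0.40, 95% interval −2.39 to −0.56), with an unadjusted p of 0.00600, in position 3 by p, and an adjusted p of 0.151. It was 1 of 10 hairpins (9.52%) whose group means lay on opposite sides of equal arms. Leaving out NC replicate 1 alone gave a difference of −1.53, and NC replicate 2 alone −1.21. Each of these runs kept the other NC library with high miR-9-5p, so the part of brain miRNA in the difference was not tested. Over the alternatives the difference ran from −1.69 without NC replicate 3 to −1.07 with 5 CPM added.

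The arms of miR-144 were also set against miR-451a. For each 100 reads of miR-451a there were 2.29, 2.18 and 1.93 reads of miR-144-3p in NC livers and 2.30, 1.41 and 1.77 in MAFLD livers. The log2 ratio of miR-144-3p to miR-451a differed by −0.18 between the groups, which overlapped (two-sided exact permutation test, p = 0.4, adjusted p = 0.4). For miR-144-5p the log2 ratio to miR-451a was −6.73 ± 0.42 (SD, n = 3) in NC and −5.44 ± 0.61 (SD, n = 3) in MAFLD livers, a difference of 1.29 with each MAFLD liver above each NC liver (exact permutation test, p = 0.1, adjusted p = 0.25). MiR-486a-5p was read 12.97, 11.5 and 19.7 times per 100 reads of miR-451a in NC livers and 20.7, 16.2 and 19.4 times in MAFLD livers. This ratio differed by 0.38 on the log2 scale, and the groups overlapped (exact permutation test, p = 0.3, adjusted p = 0.4). A ratio to miR-451a also moves with miR-451a itself. The log2 fold change of miR-451a was −0.48, against a median of 0.43 over all tested miRNAs. How many of all miRNAs separate the groups in their ratio to miR-451a was not tested. The ratio of miR-486a-5p to miR-486a-3p, with at most 2 reads of the 3p strand in any library, differed by −0.48 (exact permutation test, p = 0.4, adjusted p = 0.4), and at that depth it reflects mainly the added CPM.

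The levels of the other members were set against miR-451a over the livers. By Pearson r, 1 of the 3 relations, that of miR-144-3p, passed the adjusted p. By Spearman rho its adjusted p stood at the threshold of 0.05, and none was under it. Over the 6 libraries, miR-144-3p followed miR-451a with a Pearson r of 0.948 (exact permutation p = 0.00278, adjusted over 3 relations p = 0.00833) and a Spearman rho of 0.943 (exact permutation p = 0.0167, adjusted p = 0.05), on log2(CPM + 1). Without the 2 libraries farthest from the median of miR-451a, NC replicate 1 and MAFLD replicate 2, r was 0.984 over the remaining 4. For the deviations from the group means it was 0.934, and with median-ratio scaling it was 0.971. MiR-486a-5p, from another chromosome, had an r of 0.833 (exact permutation p = 0.0514, adjusted p = 0.0771) and a rho of 0.771 (exact permutation p = 0.103, adjusted p = 0.154). Its r was 0.816 without the same 2 libraries and 0.906 for deviations from the group means. With median-ratio scaling it was 0.893 (exact permutation p = 0.0292, adjusted p = 0.0438), but then 0.314 without those 2 libraries, on which that relation rests. MiR-144-5p had an r of 0.458 (exact permutation p = 0.367, adjusted p = 0.367) and a rho of 0.429 (exact permutation p = 0.419, adjusted p = 0.419) over all livers, and an r of 0.339 without the 2 libraries. With median-ratio scaling its r was 0.389, and it turned to −0.622 without them. For deviations from the group means its r was 0.882.

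**Figure D3:**
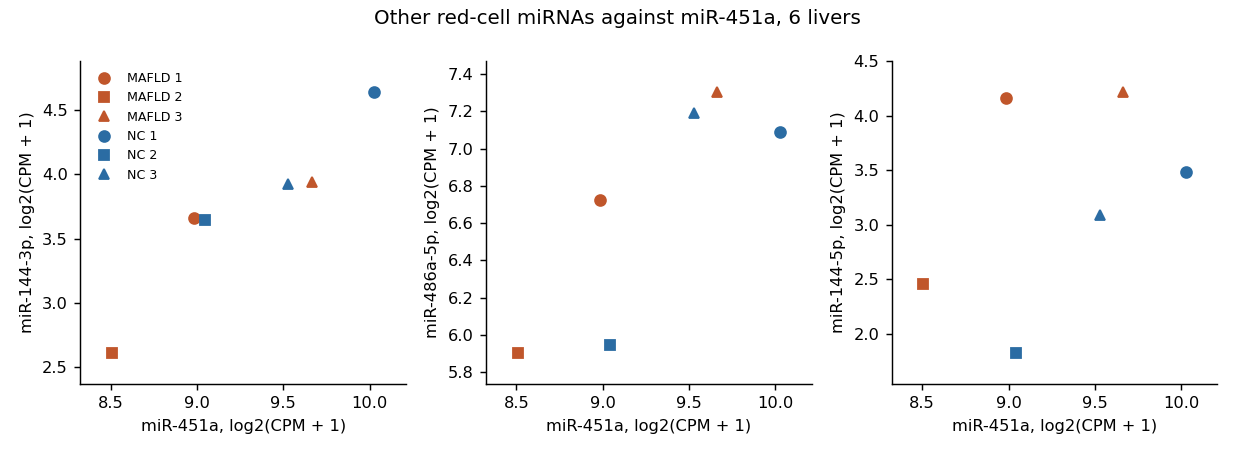
Levels of miR-144-3p, miR-486a-5p and miR-144-5p (vertical axes) against miR-451a (horizontal axes), all as log2(CPM + 1), with 1 point per library. MiR-144-3p follows miR-451a across both groups (r = 0.948), while MAFLD replicates 1 and 3 hold more miR-144-5p than the NC livers, including those with more miR-451a.

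Ranked by this r, miR-144-3p was in position 1 of the 500 other tested miRNAs and miR-486a-5p (with its copy) in position 2, whereas miR-144-5p was in position 39. With median-ratio scaling these positions were 1, 5 and 129. Outside the members, and at a mean of at least 10 CPM, the miRNAs most like miR-451a were miR-106b-3p (r = 0.678), miR-136-3p (0.573), miR-411-5p (0.491), miR-541-5p (0.489) and miR-434-5p (0.488), over 6 libraries and with no test. With median-ratio scaling the first of them was again miR-106b-3p (r = 0.932), and the others were miR-185-5p, miR-664-3p, miR-221-5p and miR-148a-5p, with r between 0.796 and 0.881. All these values share the same 6 libraries and their totals.

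**Figure D4:**
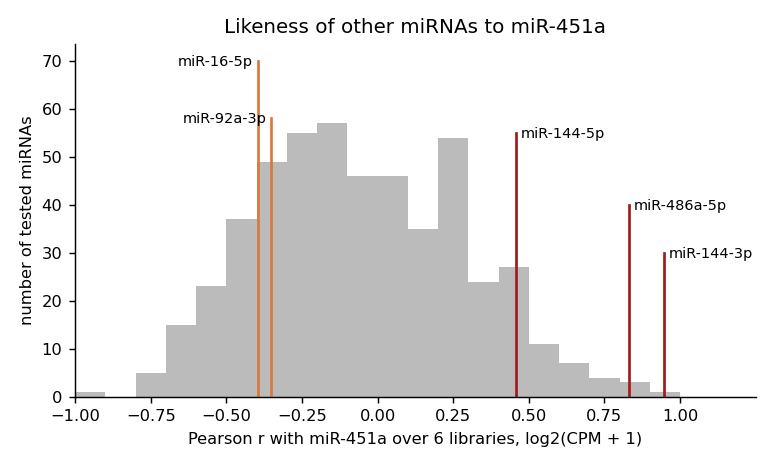
Number of tested miRNAs (vertical axis) by their Pearson r with miR-451a over the 6 libraries (horizontal axis), for the 500 other tested miRNAs. The lines mark miR-144-3p (0.948), miR-486a-5p (0.833) and miR-144-5p (0.458) of the group, and miR-16-5p (−0.396) and miR-92a-3p (−0.352), which red cells share with other cells. The last 2 are from a list of 10, of which 8 lay below 0 and 2 above, against 288 and 212 of the 500. The heights of the lines carry no value.

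The spread of the members between livers of 1 group was set against that of other miRNAs. The within-group SD of miR-451a was 0.54 on the log2(CPM + 1) scale, larger than that of 54.2% of the 238 miRNAs that averaged 10 CPM or more, whose median was 0.51. For miR-144-3p it was 0.61 and for miR-486a-5p 0.70, larger than for 66.4% and 75.2% of those miRNAs, and for miR-144-5p it was 0.94, larger than for 91.6%. MiR-144-5p, at a mean of 9.86 CPM, is itself outside that set and had 4 to 45 reads per library. The part of counting error in these spreads was not tested. From the lowest to the highest of the 6 livers, miR-451a differed 2.87-fold, miR-486a-5p 2.67-fold, miR-144-3p 4.67-fold and miR-144-5p 6.90-fold. The 4 distinct tested members summed to 0.0602% to 0.121% of miRNA reads in NC livers and to 0.0431% to 0.100% in MAFLD livers, of which miR-451a made up between 79.2% and 87.6%. Set against the hepatocyte miRNA miR-122-5p, there were 24.7, 9.68 and 8.66 reads of miR-451a per 1000 reads of miR-122-5p in NC livers and 7.17, 6.57 and 11.96 in MAFLD livers, and these ranges overlapped as well.

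Other miRNAs that are abundant in red cells but also made in many tissues had fold changes that differed within the list. Of the 10 in that list, 3 were higher in MAFLD livers at an unadjusted p of 0.05 (13.4% of all tested miRNAs were), 0 were lower and 0 passed the adjusted p, and their median log2 fold change was 0.36 against 0.43 over all. These 3 were miR-16-5p, a brake on the cell cycle (329, 336 and 515 CPM in NC and 1044, 744 and 872 CPM in MAFLD livers), miR-92a-3p of the miR-17-92 cluster and miR-15b-5p, a relative of miR-16. MiR-16-5p had a log2 fold change of 1.19 (standard error 0.34, unadjusted p = 0.00324, adjusted p = 0.152 by limma), and its groups did not overlap. With DESeq2 on the recovered reads, where 32 of all 501 miRNAs passed the adjusted p, miR-16-5p and miR-92a-3p were among them (0.0130 and 0.0147). Their log2 fold changes were 0.71 each, while 1 of the list was lower at an unadjusted p of 0.05. With median-ratio scaling the same number (3) was higher, at a log2 fold change of 0.72 for miR-16-5p, but the median of the list turned to −0.097 against 0.044 over all. Without NC replicate 3, 4 of the 10 passed the adjusted p by limma, as did 114 of all 501 tested miRNAs. Without NC replicate 1 or 2 none did, nor did any other tested miRNA (0 for each). In these runs 3 and 2 of the list were higher at an unadjusted p of 0.05 by limma, as were 26 and 27 of all 501. The r of the 10 with miR-451a ran from −0.56 to 0.23. Of them 8 were below 0, as were 288 of the 500 other tested miRNAs. With median-ratio scaling the r of the 10 ran from −0.58 to 0.88, the highest being miR-185-5p. Then 6 of the 10 were below 0, against 253 of the 500. The list as a whole summed to 1154, 1511 and 2200 CPM in NC livers and to 3192, 2336 and 2708 CPM in MAFLD livers.

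Markers of the other cells that blood or vessels bring with them were also measured. Of the 7 leukocyte miRNAs, all 7 had a log2 fold change above 0 (28.7% of all tested miRNAs were below 0), 1 of them, miR-155-5p, at an unadjusted p of 0.05 (0.0277, adjusted p = 0.221 by limma), and their median was 0.70. With median-ratio scaling, edgeR and DESeq2, 5 of the 7 were above 0, the medians were 0.29, 0.27 and 0.26, and 1, 0 and 0 had an unadjusted p under 0.05. MiR-223-3p, typical of neutrophils and other myeloid cells, stood at 9.81, 5.73 and 18.7 CPM in NC and at 24.4, 15.2 and 17.6 CPM in MAFLD livers, which overlapped. The leukocyte list summed to between 1619 and 3066 CPM in NC and between 2233 and 3319 CPM in MAFLD livers, most of it miR-146a-5p, and its r with miR-451a ran from −0.79 to 0.042, or from −0.83 to 0.56 with median-ratio scaling. Both arms of miR-126a, which is made in endothelial cells and platelets, were higher at an unadjusted p of 0.05, with log2 fold changes of 0.69 and 1.01 (adjusted p = 0.212 for each by limma), and had negative r with miR-451a (−0.48 and −0.35), also with median-ratio scaling (from −0.66 to −0.12). With median-ratio scaling 1 of these arms kept an unadjusted p under 0.05, and without NC replicate 1 or 2 neither did (0 for each). Without NC replicate 3 both passed the adjusted p by limma, as did 114 of all 501 tested miRNAs. By limma, miR-155-5p had an unadjusted p of 0.135 without NC replicate 1 and 0.167 without MAFLD replicate 1. Without NC replicate 2, MAFLD replicate 2 or MAFLD replicate 3 it was 0.0370, 0.0118 and 0.0376. Without NC replicate 3 it was 0.00324, with an adjusted p of 0.0219.

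Since muscle also makes miR-486, its markers were checked beside miR-486a-5p. Of 7 muscle miRNAs, 6 were listed and 3 tested, with 0 past an unadjusted p of 0.05 on CPM and 1, miR-1a-3p, lower with median-ratio scaling (log2 fold change −1.43, unadjusted p = 0.0432, adjusted p = 0.288 by limma). MiR-1a-3p stood at 49.8, 238 and 180 CPM in NC and at 32.6, 37.6 and 223 CPM in MAFLD livers, while miR-133a-3p, the other main muscle miRNA, was at 0.637 to 4.49 CPM. MiR-208a-3p was at 0 in all libraries, where the level of 3 reads is at most 2.24 CPM. MAFLD replicate 3, NC replicate 3 and NC replicate 1 stood in the same order in miR-1a-3p and miR-486a-5p, above MAFLD replicates 1 and 2 in both, while NC replicate 2 was the highest in miR-1a-3p and among the lowest in miR-486a-5p. The part of muscle RNA in miR-486a-5p was not tested further. Of the hepatocyte list, 1 of 5 (miR-122-3p) was higher at an unadjusted p of 0.05, and its median log2 fold change was 0.43, while with median-ratio scaling none was (0 of 5) and the median was −0.038. The brain list had 2 of 3 lower at an unadjusted p of 0.05, miR-9-5p and miR-124-3p, for which NC replicates 1 and 2 were the high libraries. The median of −2.68 is that of miR-124-3p, at 13.7, 28.7 and 0 CPM in NC and 0, 0 and 0.652 CPM in MAFLD livers. MiR-137-3p did not share this order, at 2.35, 7.01 and 7.48 CPM in NC and 3.75, 5.55 and 5.86 CPM in MAFLD livers. The r of the brain list with miR-451a ran from −0.38 to 0.42, or from −0.066 to 0.78 with median-ratio scaling.

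**Figure D5:**
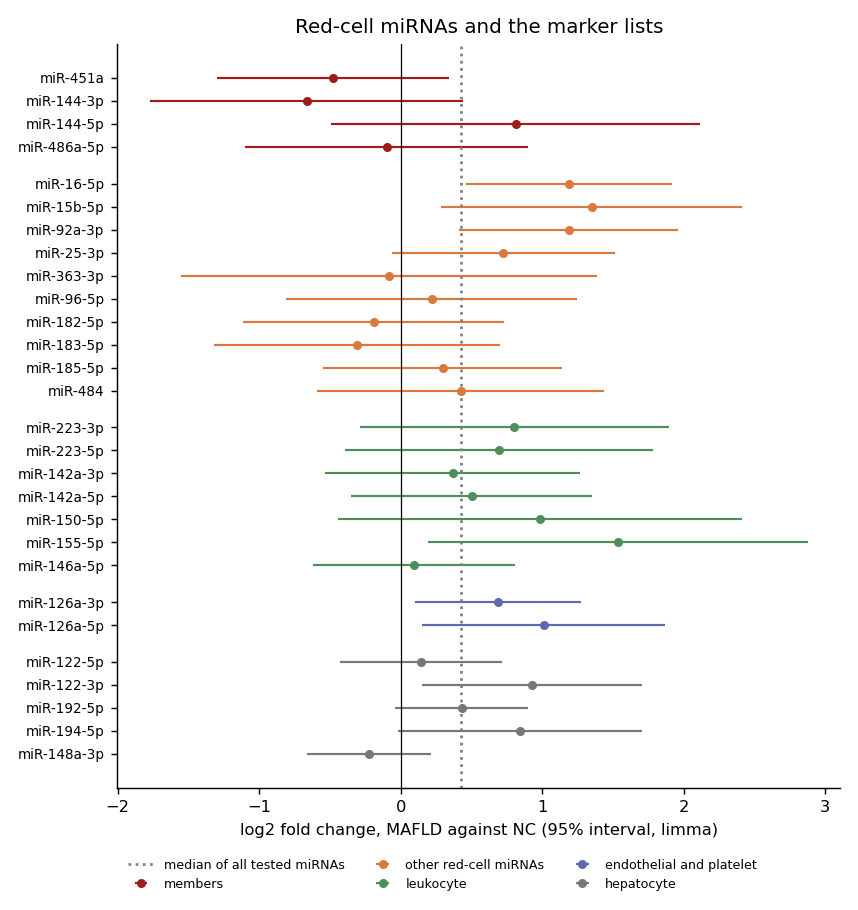
Log2 fold change of MAFLD against NC livers on log2(CPM + 1) (horizontal axis) with 95% intervals from limma, for the tested red-cell members and 4 marker lists; the dotted line is the median of all tested miRNAs (0.43). The intervals of the 4 members include 0, and miR-451a, miR-144-3p and miR-486a-5p lie to the left of the median of all tested miRNAs.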

How the data were processed

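Small RNA of liver was sequenced on an Illumina NextSeq 500, with 3 libraries per group. The source, tissue and group labels say mouse liver, while the growth and treatment protocols in the labels describe HepG2 cells. The libraries were taken as mouse liver. Per the labels, RNA was first treated to remove ends and base methylation that block ligation or reverse transcription, and FastQC, cutadapt, Bowtie and edgeR and the build GRCm38 are named without their roles or versions. How reads that match several miRNAs were counted is not given in the sources used here. The deposited values are CPM, which the authors scaled to the reads on all 1546 listed miRNAs of a library. They were divided by the smallest value above 0 of each library, and 100% came within 0.02 of whole reads.

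The groups were compared with limma 3.58.1 (R 4.3.3), with a variance trend, on log2(CPM + 1). The 501 miRNAs that averaged 1 CPM or more were tested, with Benjamini-Hochberg adjustment over all of them (threshold 0.05). Count tests on the recovered reads used edgeR 4.0.16 and DESeq2 1.42.0. They called 1 and 32 miRNAs at an adjusted p under 0.05. Exact permutation tests and Wilson intervals used Python 3.11.15 with scipy 1.17.1, and folds were predicted with RNAfold 2.7.2. The fits were first run on simulated reads with a seeded set of changed miRNAs. Named miRNAs are the members, those of 6 marker lists and the 5 most like miR-451a, on CPM and again with median-ratio scaling. Members and lists were chosen with earlier results of these data known. Replicates of a group differed by more than sampling noise. Equal replicate numbers mark different mice. The HepG2 experiments and plasma samples were not analysed here.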

Additional observations from a re-analysis of the deposited data

How the results depend on the processing

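By adjusted p, no member was called in any alternative. MiR-451a kept a log2 fold change below 0 and an adjusted p above 0.05 in all 17 alternatives, from −1.08 to −0.21 (from −0.79 to −0.21 when 1 library was left out), with adjusted p from 0.0948 to 0.831. MiR-144-3p did so in 17 (−1.37 to −0.27), and miR-144-5p stayed above 0 and uncalled in 16 (0.26 to 1.39), since the filter at 10 CPM removes it. MiR-486a-5p, and with it miR-486b-5p, turned to 0.077, 0.13 and 0.27 without NC replicate 1, NC replicate 3 and MAFLD replicate 2 (from −0.50 to 0.27 when 1 library was left out). The 5 ratios kept their sign in all alternatives. The number of all miRNAs past the adjusted p (1) became 11 without the filter, 2 with median-ratio scaling, 2 without miR-148a-3p in the total, 0 without the trend, where 74 had an unadjusted p under 0.05, and 32 with DESeq2, and 0 to 114 when 1 library was left out, with 114 without NC replicate 3, while the 90 at an unadjusted p became 59 at 10 CPM and 40 to 177 when 1 library was left out. With median-ratio scaling 36 of the 81 at an unadjusted p were higher and 45 lower, against 67 and 23. With the replicate number as a block, 5 miRNAs passed the adjusted p and 92 the unadjusted p, and miR-451a had an adjusted p of 0.510, but the numbers mark different mice, and deviations of same-numbered livers correlated by between −0.046 and 0.012. The comparison over all hairpins, the correlations with median-ratio scaling or on deviations from group means, and the marker lists under other settings were chosen after seeing the data. Depth limits both arms of miR-144, at 4 to 61 reads per library, and the 3p strands of miR-486, at 0 to 3 reads.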
